A study of Mus musculus with 24 samples.

Results

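Stress-regulated amino acid transporters were followed in mouse multiple myeloma lines under bortezomib, a drug that inhibits the proteasome. The set holds 7 genes, Slc7a11, Slc7a5, Slc3a2, Slc38a2, Slc38a1, Slc1a5 and Slc1a4, and its members were chosen as all array probes that the platform annotation names for them. Of 45281 probes on the array 19 belonged to 6 of these genes, and 16 of the 19 were bright enough to be tested, of 21543 tested in all. Slc7a5, the light chain LAT1 that carries leucine and other large amino acids, has no probe under that symbol in the annotation used and was not analysed here.

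Cells take up amino acids through paired exchangers and sodium-driven carriers. When amino acids run short or misfolded proteins build up, phosphorylation of eIF2α slows translation while the transcription factor ATF4 is made, and ATF4 raises carriers such as Slc7a11 and Slc38a2 together with enzymes such as Asns. The transcription factor NRF2, which answers oxidative stress, is a known activator of Slc7a11 as well, because the cystine it brings in feeds glutathione synthesis. Plasma cells and myeloma cells make much secretory protein and depend on amino acid supply and on the proteasome.

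All 4 lines came from multiple myeloma of mice with a mixed FVBN and BL/6 background that carry both a Bcl-XL and a Myc transgene, so that resistant and sensitive lines share both. Resistance to bortezomib is the label of 595sp VR and 638bm VR, and sensitivity that of 595sp and 638bm. Each was sampled at 0, 2, 8, 16 and 24 h in 33 nM bortezomib on 1-colour Illumina bead arrays, with 1 array per time and 2 at 24 h, which gave 24 arrays and 6 per line. The labels do not name the promoters of the transgenes or how resistance arose, and they do not say whether arrays came from separate cultures. In 638bm VR, 4 of the 6 arrays carry a timepoint characteristic unlike their title, and the title's time was taken.

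The 2 lines of an arm were its replicates (n = 2), and p-values measure the spread between changes of those lines, pooled over arms and times. Between 15250 and 17362 probes, or 33.7 to 38.3%, stood above background on an array, and the number of arrays limits the precision. The first 6 arrays of the table, the first arrays of 595sp and untreated 595sp VR, had a log2 background of 5.45 to 5.54, against 5.86 to 6.19 on the other 18. Of 10 plasma cell markers 6 were above background on all arrays (Sdc1, Xbp1, Irf4, Slamf7, Mzb1 and Fkbp11), while Prdm1, Tnfrsf17 and Jchain were so on none. Of 5 B cell markers measured Cd79b, Cd22 and Blk were above background on all arrays, and of 6 stromal markers Pecam1 was. No T cell, myeloid or erythroid marker was above background on all arrays. The part of such cells in the results was not tested. Because whole cultures were read, fewer cells with a transcript and less of it per cell cannot be told apart.

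RefSeq promoter windows (GRCm38.p6, 250 bases before to 50 after a start) were at hand for 4 of the 7 members. Those of Slc7a11 and Slc1a4 hold the motif TGATGNAA, which ATF4 and its partners of the C/EBP family are known to bind, and both are shown for that reason, 150 bases before and 10 after the start, with matches on either strand in capitals. The Slc7a11 window lies at chr3:50443604-50443763 and the Slc1a4 window at chr11:20332704-20332863, both on the minus strand. The Slc7a11 window belongs to a start inside the gene (chr3:50364936-50499087) and not to its outer end.
Slc7a11: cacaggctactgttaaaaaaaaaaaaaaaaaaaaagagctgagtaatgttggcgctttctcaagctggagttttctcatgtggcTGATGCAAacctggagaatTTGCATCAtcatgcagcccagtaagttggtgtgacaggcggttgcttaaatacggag
Slc1a4: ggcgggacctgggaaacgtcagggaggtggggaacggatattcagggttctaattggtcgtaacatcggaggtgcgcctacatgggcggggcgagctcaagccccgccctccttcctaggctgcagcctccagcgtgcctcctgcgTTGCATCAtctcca

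The Slc7a11 window holds 2 matches, from -66 to -59 and from -47 to -40, and the Slc1a4 window 1, from -4 to 4 across the start. Of 32851 windows of 300 bases 3.97% hold at least 1 match and 0.07% hold 2 or more. The windows of Slc38a2 and Slc3a2 hold none, which says nothing of sites elsewhere: in the human gene of SNAT2 the known amino acid response element lies in the first intron. The Slc3a2 window (chr19:8713888-8714047) also belongs to a start inside its gene, and the outer end was not read. A second motif, TGACNNNGC on either strand, the core that NRF2 is known to bind, is found in 12.4% of windows and in that of Slc38a2, from -27 to -19. The windows of Slc7a11, Slc1a4 and Slc3a2 hold 0 matches to this second motif. A match is a description of letters and not a measured site.

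Slc7a11 (chr3:50364936-50499087) encodes xCT, the light chain that exchanges extracellular cystine for glutamate. Among the 4 lines it was read chiefly in 595sp. In 595sp VR the log2 level of its brightest probe (probe 1, numbered by mean level) lay between 5.09 and 5.54 and was above background on 1 of 6 arrays, a 24 h array. The same held for 638bm VR, where levels ran from 4.998 to 5.56 and the untreated array was the 1 above background. In 595sp the level was 6.21, 6.87, 9.47 and 8.17 at 0, 2, 8 and 16 h, with 7.22 and 7.32 on the 24 h arrays. In 638bm levels ran from 5.03 to 5.59, and the 8 h array and 1 of the 24 h arrays were above background. The levels of 595sp thus lay above all those of the other lines at every time.

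Probe 2 of Slc7a11 gave the same picture with a wider range. In 595sp VR, 638bm VR and 638bm its log2 level ranged from 4.47 to 5.003 and was above background on 0 of 18 arrays. In 595sp it was 7.49, 8.81, 10.88 and 8.60 at 0, 2, 8 and 16 h, and 8.71 and 8.38 at 24 h. With 595sp VR below background, probe 1 was at least 15.4-fold and probe 2 at least 40.9-fold lower in 595sp VR than in 595sp at 8 h. These bounds set 595sp against the lowest level above background on the 595sp VR array, and they rest on 1 array per line. The 2 arrays also differ in log2 background, at 5.50 for 595sp and 6.16 for 595sp VR. Probes 3 and 5 peaked at 8 h in 595sp too, at 8.29 and 6.99, and were above background in no other line. Probe 4 was above background on 0 of 24 arrays.

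At 8 h Slc7a11 rose in the sensitive arm, by 1.87 ± 0.42 on the log2 scale (SE, n = 2 lines), or 3.65-fold (limma, adjusted p = 0.0207). The change was 3.26 in 595sp and 0.48 in 638bm, so the mean describes neither line. It was the 1 member gene of 6 that passed at this time, against 4.13% of all probes tested, 1.87% higher and 2.26% lower. Probes 2, 3 and 5 were bright enough to be tested only through 595sp, so their 8 h changes are given as a description of that line. Probe 2 stood 3.39 above its untreated level there, and probes 3 and 5 started below background, so no size is given for them.

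The call of probe 1 was lost without 595sp (0.48, adjusted p = 0.382) and without either resistant line (1.87, adjusted p = 0.128 in both cases), and at 8 h without 638bm the change was 3.26. It was also lost without background correction (1.55, adjusted p = 0.0519), with an offset of 50 (1.52, adjusted p = 0.0569), on the authors' processed values (1.55, adjusted p = 0.0518) and with the cell line left out of the model (1.87, adjusted p = 1). In 595sp the changes at 8, 16 and 24 h were 3.26, 1.96 and 1.06, all from and to arrays of like background except the second 24 h array. At 8 h 595sp VR changed by 0.26 and 638bm VR by -0.48, taken between levels mostly not above background. The response differed between resistant and sensitive lines by -1.98 ± 0.59 at 8 h (unadjusted p = 0.00418), which did not pass over all probes (adjusted p = 0.699).

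**Figure D1:**
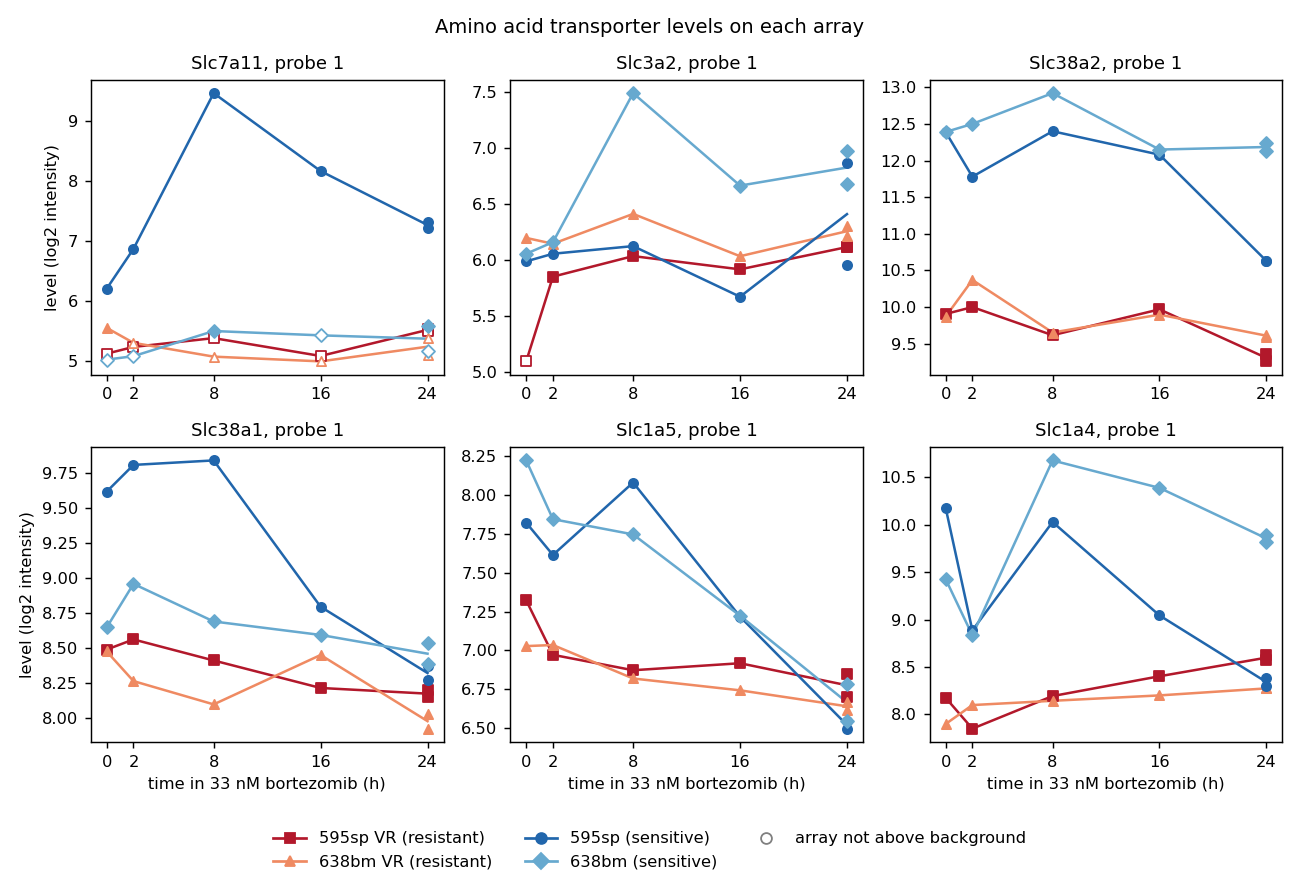
Levels of the probe that stands for each member gene (log2 normalized intensity, vertical axes differ between panels) against hours in 33 nM bortezomib, for the resistant lines 595sp VR and 638bm VR and the sensitive lines 595sp and 638bm. Each point is 1 array, lines join the means, and open points were not above background. Slc7a11 peaks at 9.47 in 595sp at 8 h, and Slc38a2 lies lower in the resistant line of each pair at all 5 times.

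Slc3a2 (chr19:8706882-8723369) encodes the heavy chain 4F2hc, or CD98, which brings xCT and LAT1 to the cell surface. Its probe read low levels and passed in no comparison, and single lines changed by up to 1.43 on the log2 scale. In 595sp VR the log2 level was 5.10, 5.85, 6.03 and 5.92 at 0, 2, 8 and 16 h, and 6.11 and 6.12 at 24 h. The untreated 595sp VR array was the 1 of 24 on which the probe was not above background, and it is also the 1 array of this line with the low background of the first 6, so the changes of 0.76 to 1.02 in 595sp VR all start from it. In 638bm VR levels stayed between 6.03 and 6.41. In 638bm the level was 6.06 at 0 h and 7.49 at 8 h, the highest of all lines, and in 595sp it ran from 5.67 to 6.12 through 16 h, with 5.95 and 6.86 on the 24 h arrays. These last arrays differ by 0.91, the largest gap between 24 h arrays of a line among the probes that stand for genes.

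At 8 h Slc3a2 differed from 0 h by 0.58 ± 0.28 in the resistant lines (adjusted p = 0.309). The difference was 0.78 ± 0.28 in the sensitive lines (adjusted p = 0.136), with 0.14 in 595sp and 1.43 in 638bm. The line with the larger Slc7a11 change was thus the one with the smaller Slc3a2 change. The untreated difference between resistant and sensitive lines was -0.38 ± 0.32 (adjusted p = 0.509), and its pairs ran opposite ways, -0.89 for 595sp VR against 595sp and 0.14 for 638bm VR against 638bm.

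Slc38a2 (chr15:96687392-96699728) encodes SNAT2, a sodium-coupled carrier of glutamine, alanine and other small neutral amino acids, and is a textbook target of amino acid shortage. It had the largest untreated difference between the arms of the 6 genes. Its brightest probe had log2 levels of 9.91, 10, 9.62 and 9.97 at 0, 2, 8 and 16 h in 595sp VR, with 9.26 and 9.35 at 24 h, against 12.39, 11.78, 12.40 and 12.08, with 10.63 on both 24 h arrays, in 595sp. In 638bm VR it had 9.87, 10.37, 9.65 and 9.90, with 9.60 and 9.62 at 24 h, against 12.39, 12.50, 12.92 and 12.15, with 12.24 and 12.13 at 24 h, in 638bm. On this probe the level was lower in the resistant line of a pair at 10 of 10 pair and time combinations. The log2 differences were -3.27 to -1.32 (median -2.37), and no resistant array reached the lowest sensitive one. Probe 2 was lower at 8 of 10, and was higher in 595sp VR than in 595sp at 16 h (0.25) and 24 h (0.71). At 2, 8 and 16 h the 595sp arrays had the low background of the first 6 and the 595sp VR arrays did not.

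Before treatment Slc38a2 was 5.68-fold lower in resistant lines, a log2 difference of -2.50 ± 0.33 (limma, adjusted p = 0.00285), with -2.48 for the 595sp pair and -2.53 for the 638bm pair. Each untreated pair was read on arrays of like background. Probe 2 agreed in direction, at -1.60 ± 0.40 (adjusted p = 0.0286), with -1.36 and -1.85 in the same pairs. Probe 3, above background on 4 of 24 arrays, differed by 0.36 ± 0.16 and did not pass. The call of probe 1 held in all 8 other settings of the analysis, with differences of -2.50 to -2.31. With 1 line or 1 set of 24 h arrays left out the difference was -2.81 to -2.20. Where a line was left out only 1 pair remained, so those runs do not check the rule of 1 log2 unit in both pairs. The call of probe 2 was lost with origin left out of the model (-1.60, adjusted p = 0.154).

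During treatment the probes of Slc38a2 disagreed in the resistant lines. At 24 h probe 1 changed by -0.43 ± 0.27 (adjusted p = 0.57) and probe 2 by 0.49 ± 0.22 (adjusted p = 0.351). Probe 2 was above its untreated level in both resistant lines at every later time, by 0.55 to 0.87 in 595sp VR and 0.28 to 0.74 in 638bm VR, and at 2, 8 and 16 h its unadjusted p was 0.0035, 0.0091 and 0.00773 without passing over all probes. In 595sp VR these changes start from the untreated array of low background, and in 638bm VR both ends lie among the other 18 arrays.

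In the sensitive arm Slc38a2 fell at 24 h, by 0.99 ± 0.27 on the log2 scale (adjusted p = 0.0178). The change was -1.76 in 595sp and -0.21 in 638bm, and the call was lost without 595sp (-0.21, adjusted p = 0.629), without either resistant line (-0.99, adjusted p = 0.0781) and with the cell line left out of the model (adjusted p = 0.309). Probe 2 fell by 1.07 ± 0.22 (adjusted p = 0.00284), with -1.37 in 595sp and -0.76 in 638bm. It too failed without 595sp (-0.76, adjusted p = 0.0614), and with the cell line left out of the model (adjusted p = 0.498). At 8 h probe 1 had stood 0.01 and 0.53 above the untreated level in 595sp and 638bm, a mean change of 0.27 ± 0.27 that did not pass (adjusted p = 0.652).

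The response of probe 2 was the 1 measure of 16 whose difference between the arms passed. At 24 h it was 1.56 ± 0.31 more positive in resistant than in sensitive lines (adjusted p = 0.0285), where the difference for probe 1 was 0.56 ± 0.38 (adjusted p = 0.524). The difference for probe 2 was not called without 595sp VR (1.35, adjusted p = 0.39), without 638bm VR (1.77, adjusted p = 0.656), without 595sp (1.25, adjusted p = 0.0548) or with the cell line left out of the model (1.56, adjusted p = 1). With the times of the characteristic for 638bm VR it was 1.63 (adjusted p = 0.0286). The level of probe 2 in 595sp VR at 24 h (9.65 on both arrays) was above that of 595sp (8.59 and 9.29), while in 638bm VR (9.41 and 9.61) it was below that of 638bm (10.35 and 10.27).

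**Figure D2:**
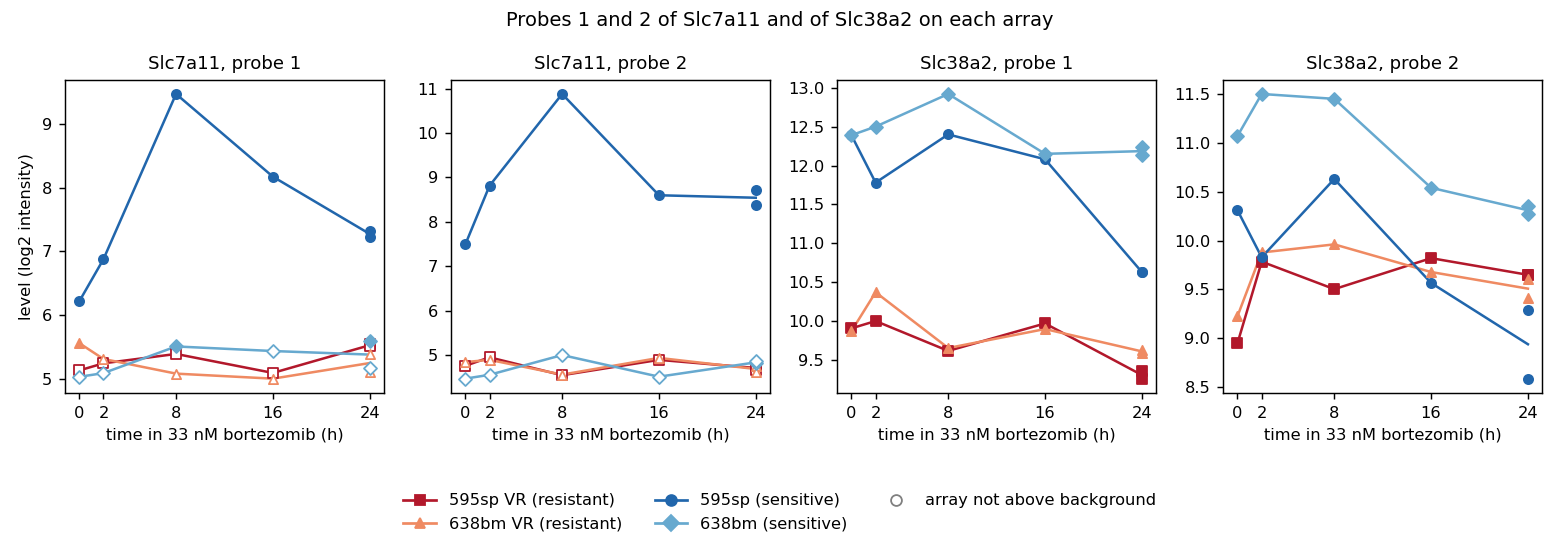
Levels of probes 1 and 2 of Slc7a11 and of Slc38a2 (log2 normalized intensity) against hours in 33 nM bortezomib, 1 point per array, open where not above background, with lines joining the means. Both Slc7a11 probes are highest in 595sp at 8 h, and of these probes only Slc38a2 probe 2 ends above its untreated level in both 595sp VR and 638bm VR.

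Slc38a1 (chr15:96571418-96643438), next to Slc38a2 on the chromosome, encodes SNAT1, a related carrier of glutamine. Its brightest probe had log2 levels from 8.15 to 8.56 in 595sp VR and from 7.93 to 8.48 in 638bm VR, against 8.27 to 9.84 in 595sp and 8.39 to 8.96 in 638bm. In 595sp it stood at 9.62, 9.81 and 9.84 at 0, 2 and 8 h and at 8.80 at 16 h, with 8.37 and 8.27 at 24 h. The range of 595sp was thus the widest, and by 24 h its level lay within the range of 595sp VR. On this probe the resistant line of each pair was lower at every time, with differences of -1.43 to -0.14. Probe 3 was lower at 10 of 10 pair and time combinations, probe 2 at 9 of 10 and the dim probe 4 at 5 of 10.

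At 24 h Slc38a1 differed from 0 h by -0.41 ± 0.25 in the resistant lines (adjusted p = 0.563). It fell in the sensitive lines by 0.74 ± 0.25 (adjusted p = 0.0485), with -1.29 in 595sp and -0.19 in 638bm. The call in the sensitive lines was at the edge of the threshold. It held in 2 of 8 other settings of the analysis, where the change was -0.74 to -0.69, was lost without 595sp (-0.19, adjusted p = 0.686), without the first 24 h arrays (-0.73, adjusted p = 0.0644) and without either resistant line (adjusted p = 0.134), and had an adjusted p = 0.504 with the cell line left out of the model. Probe 3 fell by 0.68 ± 0.22 (adjusted p = 0.0373) and did not pass without 595sp (-0.49, adjusted p = 0.145), without either resistant line (adjusted p = 0.123) or with the cell line left out (adjusted p = 0.344). Probe 2 gave -0.58 ± 0.22 (adjusted p = 0.0698), and probe 4, above background on 11 of 24 arrays, 0.03 ± 0.23. Untreated, resistant lines differed from sensitive lines by -0.65 ± 0.31 on probe 1 (adjusted p = 0.232), by -0.74 ± 0.24 on probe 2 (adjusted p = 0.072) and by -0.81 ± 0.23 on probe 3 (adjusted p = 0.0484). The last was no call, as its pairs differed by less than 1 log2 unit, at -0.92 and -0.70.

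Slc1a5 (chr7:16781334-16798274) encodes ASCT2, an exchanger through which many dividing cells take up glutamine. At 24 h its response was alike over 3 probes and both sensitive lines. The log2 level of its brightest probe was 7.32, 6.97, 6.87 and 6.92 at 0, 2, 8 and 16 h in 595sp VR, with 6.70 and 6.85 at 24 h, and 7.03, 7.04, 6.82 and 6.74 in 638bm VR, with 6.62 and 6.67 at 24 h. It was 7.82, 7.61, 8.08 and 7.22 at 0, 2, 8 and 16 h in 595sp, with 6.50 and 6.54 at 24 h. In 638bm it had 8.22, 7.84, 7.74 and 7.22, with 6.79 and 6.55 at 24 h. Both sensitive lines were thus lowest at 24 h, while at 8 h they had moved opposite ways, by 0.26 in 595sp and -0.48 in 638bm.

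The Slc1a5 level of the resistant lines differed from 0 h by -0.47 ± 0.18 at 24 h (unadjusted p = 0.0182, adjusted p = 0.257), at -0.55 for 595sp VR and -0.39 for 638bm VR. In the sensitive lines it was 2.69-fold lower at 24 h than at 0 h, a log2 change of -1.43 ± 0.18 (adjusted p = 8.75e-05), with -1.30 in 595sp and -1.55 in 638bm. Probes 2 and 3 fell by 1.22 ± 0.21 (adjusted p = 0.000954) and 1.23 ± 0.19 (adjusted p = 0.000372). The calls of the 3 probes at 24 h held in all alternatives tried, the model without cell line among them. At 16 h the fall was already 0.80 ± 0.18 for probe 1 (adjusted p = 0.0137), with -0.60 in 595sp and -0.997 in 638bm, and 0.91 ± 0.21 for probe 2 (adjusted p = 0.017), while probe 3 read -0.41 ± 0.19 (adjusted p = 0.23). The 16 h call of probe 1 was lost without 638bm (-0.60, adjusted p = 0.13). Without either resistant line both 16 h calls were lost (adjusted p = 0.0891 and 0.0963), as they were with the cell line left out of the model (adjusted p = 0.296 and 0.337).

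For Slc1a5 the difference of the responses was 0.96 ± 0.25 (unadjusted p = 0.00149) and did not pass over all probes (adjusted p = 0.0782). Resistant lines started lower. Untreated, their level differed from that of the sensitive lines by -0.84 ± 0.19 (adjusted p = 0.0187), with -0.50 in the 595sp pair and -1.19 in the 638bm pair. This was not a call, because a call here also needed 1 log2 unit in both pairs. At 24 h the differences within pairs were 0.25 and -0.03, so that the arms then lay close together. Probes 4 and 5 were above background on 0 of 24 arrays.

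Slc1a4 (chr11:20302180-20332713) encodes ASCT1, an exchanger of serine, alanine and cysteine. The untreated arrays of 595sp VR and 638bm VR had log2 levels of 8.18 and 7.90, against 10.18 in 595sp and 9.43 in 638bm. It was thus 3.41-fold lower in resistant lines, a log2 difference of -1.77 ± 0.47 (adjusted p = 0.0364), with -2.01 and -1.53 in the 595sp and 638bm pairs. The call was lost without 638bm VR (-1.36, adjusted p = 0.131) and with origin left out of the model (adjusted p = 0.0701).

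Under drug Slc1a4 parted the sensitive lines. The 24 h changes of 595sp VR and 638bm VR were 0.42 and 0.38, on levels that ran from 7.85 to 8.62 and from 7.90 to 8.28. In 595sp it had 10.18, 8.89, 10.03 and 9.04 at 0, 2, 8 and 16 h, with 8.38 and 8.30 at 24 h. In 638bm it had 9.43, 8.83, 10.68 and 10.39, with 9.82 and 9.89 at 24 h. The levels were lower at 2 h than at 0 h in both, a change of -0.94 ± 0.37 that did not pass (unadjusted p = 0.0224, adjusted p = 0.558). By 24 h the change was -1.84 in 595sp and 0.43 in 638bm, and in their mean of -0.71 ± 0.37 it did not pass (adjusted p = 0.204).

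**Figure D3:**
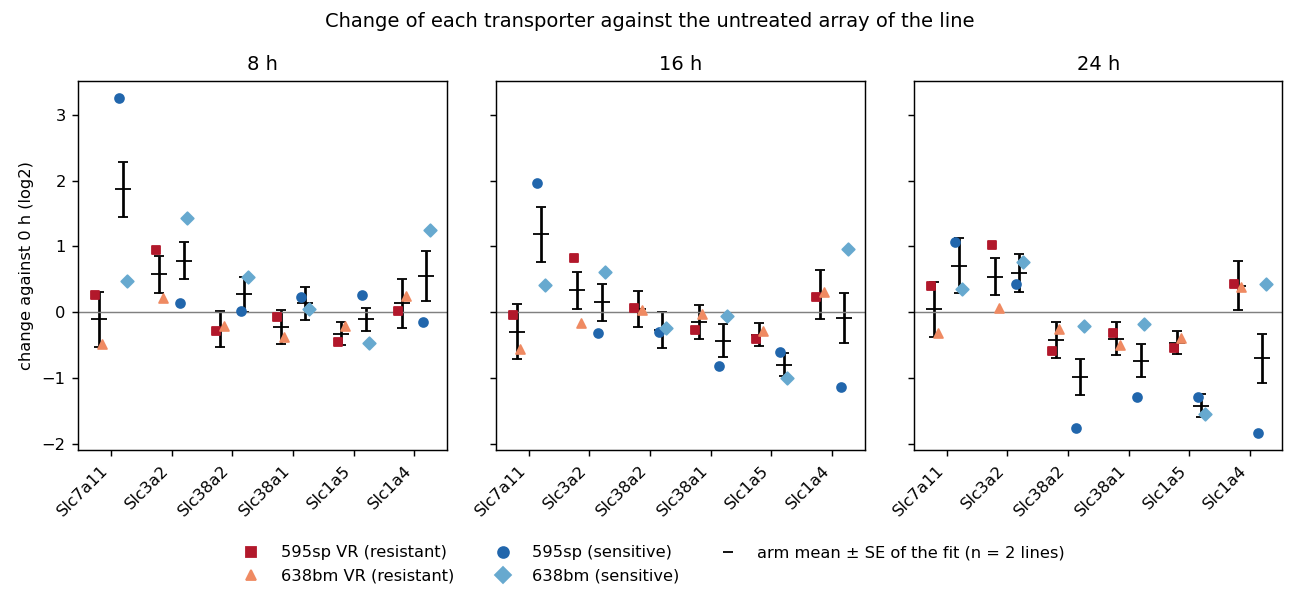
Log2 change from the untreated array of the same line at 8, 16 and 24 h for the probe that stands for each gene, with 595sp VR and 638bm VR left of 595sp and 638bm in each gene. Points are single lines, and black bars are the mean of an arm ± SE of the limma fit (n = 2 lines). Slc38a2, Slc38a1 and Slc1a5 lie below 0 in all 4 lines at 24 h, and Slc1a4 separates 595sp (-1.84) from the other 3 lines (0.38 to 0.43).

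Counted over the set, 0 of 6 genes and 0 of 16 probes passed at any time in the resistant lines by limma. At an unadjusted p under 0.05, the number of probes was 2, 1, 1 and 4 at 2, 8, 16 and 24 h. The last were 3 of Slc1a5, lower, and probe 2 of Slc38a2, higher. Of all 21543 probes, 3095, 3751, 2757 and 2736 had an unadjusted p under 0.05 at those times. After adjustment all probes passed in 0.877%, 3.1%, 1.04% and 1.27% of cases at those times, with 0.603% higher and 0.668% lower at 24 h. The background of calls is thus low in this arm, and a count of 0 of 16 lies near it. The median change of the 6 genes at 24 h was -0.18 in resistant lines and -0.72 in sensitive lines.

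The sensitive lines had 0 of 6 genes called at 2 h by limma, where 0.0511% of all probes passed. At an unadjusted p under 0.05 there was 1 gene, beside 1610 of all 21543 probes. At 8 h 1 rose, and at 16 h 1 fell, Slc1a5, with 2 of 16 probes against 6.52% of all probes. By 24 h 3 of 6 fell and 0 rose, Slc38a2, Slc38a1 and Slc1a5, with 7 of 16 probes lower. Of all probes 20.3% passed at that time, 10.6% higher and 9.77% lower. The median change of the 6 genes was -0.72, beside 0.06 for all genes tested, and 4 of the 6 were below 0. Slc1a5 was the 1 gene called at 24 h by the model that left out the cell line.

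For the difference between the responses, 0% of all 21543 probes passed at 2, 8 and 16 h (limma; 659, 1495 and 2156 at an unadjusted p under 0.05), and 0 member probes passed with them, 1, 4 and 3 having an unadjusted p under 0.05. At 24 h 1 of 16 probes passed, the second of Slc38a2, beside 0.998% of all probes. Passing in the sensitive arm and not in the resistant arm therefore does not show that the arms differ for Slc7a11, Slc38a1 or Slc1a5.

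Untreated, 2 of 6 genes and 3 of 16 probes were called lower in resistant lines and 0 higher, where 3.93% of all probes were called, 3.46% lower and 0.469% higher. All 6 genes had a mean difference below 0, with a median of -0.75 beside 0.09 for all genes tested. For Slc7a11 (-0.28, adjusted p = 0.882 by limma) the pairs ran opposite ways, at -1.08 for 595sp and 0.53 for 638bm. Its probe was above background on 1 of 2 untreated arrays in each arm. The pairs of Slc3a2 also ran opposite ways, at -0.89 and 0.14.

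**Figure D4:**
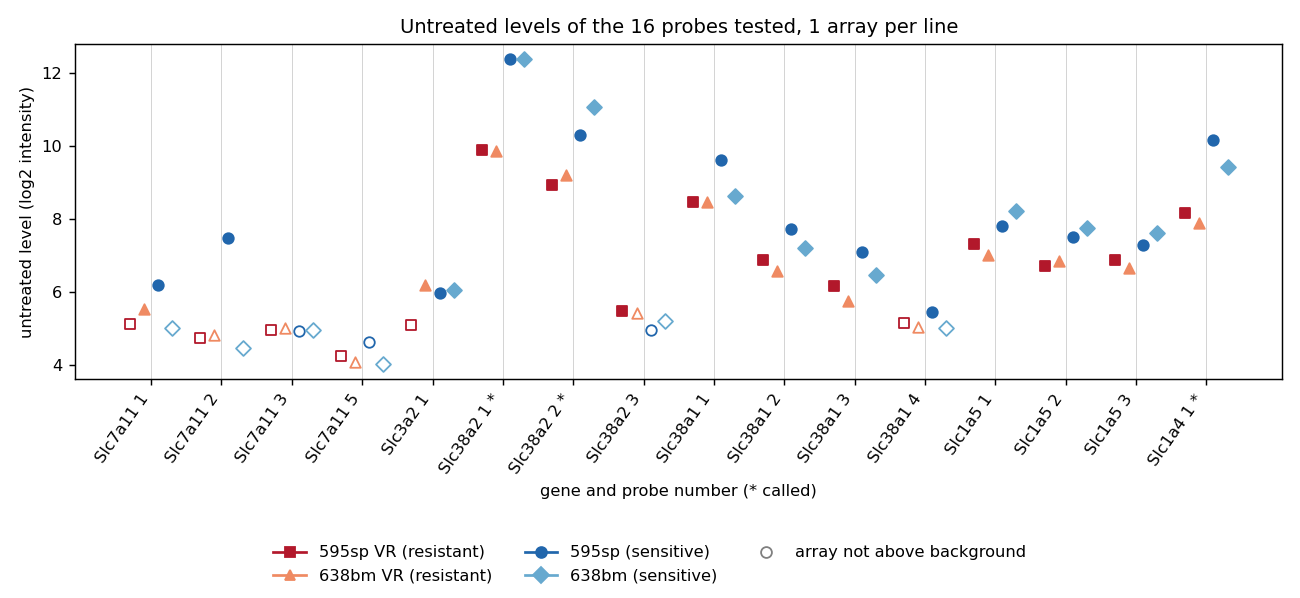
Untreated levels (log2 normalized intensity) of the 16 probes tested, with the arrays of 595sp VR and 638bm VR left of those of 595sp and 638bm for each probe, and open points not above background. Asterisks mark Slc38a2 probes 1 and 2 and Slc1a4, which were called lower in the resistant lines.

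The members did not move as 1 group. Over the 20 values of line and time, each line's mean subtracted, Slc38a2, Slc38a1 and Slc1a5 correlated with each other at r = 0.68 to 0.74, and Slc7a11 with the other members at r = 0.04 to 0.20. Slc3a2 and Slc1a5 had r = -0.40. These are descriptions, since the points share lines and arrays. Between probes of 1 gene r was 0.75 to 0.91 for Slc7a11, 0.84 to 0.94 for Slc1a5, 0.83 to 0.87 for probes 1 to 3 of Slc38a1 and 0.68 for probes 1 and 2 of Slc38a2. The dim probes differed, with r = -0.21 and -0.56 for probe 3 of Slc38a2 and 0.29 to 0.39 for probe 4 of Slc38a1, each against the other probes of its gene.

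By the same measure the gene most like Slc1a5 was Nsun2, an RNA methyltransferase (r = 0.96), followed by Tmem131 and Syvn1, a ubiquitin ligase of the endoplasmic reticulum (0.95 and 0.93). Slc12a2, a cotransporter of sodium, potassium and chloride, was most like Slc38a1 (0.92), before Sec61a1, a subunit of the protein translocation channel, and Tug1 (0.89 and 0.88). Slc38a2 was most like Farsa, a subunit of phenylalanyl-tRNA synthetase, Krit1 and Wasl, all at 0.91. For Slc1a4 the genes were Tmem161a, Dhrs7 and Alg12 (0.87, 0.86 and 0.84), and for Slc3a2 they were Cog3, Dhps and Gemin5 (0.88, 0.86 and 0.83). The likeness of Slc7a11 was lower, at 0.81 for each of Plpp5, Niban1 and Parp3.

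The other genes of the ATF4 pathway that passed at 24 h moved the opposite way to the 3 carriers that fell. In the resistant lines at 24 h 0 of 22 genes tested passed by limma (median 0.54). At an unadjusted p under 0.05 there were 8, beside 2736 of all 21543 probes. Of all probes 1.27% were called in that arm, 0.603% higher, so a count of 0 lies near that share. Atf4 changed there by 0.81 ± 0.21 (adjusted p = 0.0766), at 1.34 for 595sp VR and 0.28 for 638bm VR. Of the same 22, 9 passed at 24 h over the sensitive lines, all higher, with a median of 0.95, where 10.6% of all probes were called higher and 9.77% lower. Ddit3, the transcription factor CHOP, rose by 2.14 ± 0.26 (adjusted p = 6.91e-05), with 2.13 in 595sp and 2.14 in 638bm, and Atf4 itself by 1.25 ± 0.21, with 1.39 and 1.12. The changes of Ddit3 and Atf4 were thus alike in both sensitive lines, where Slc7a11 and Slc1a4 differed between them. Asns, asparagine synthetase, changed by 1.07 ± 0.41 without passing (adjusted p = 0.0749). Its change was 0.33 in 595sp and 1.80 in 638bm, the reverse order of the Slc7a11 changes. The untreated Asns level was higher in 595sp, at 12.49 against 10.21 in 638bm. At 24 h the difference of the responses, resistant minus sensitive, passed for 2 of the 22 genes, both below 0, beside 0.998% of all probes. For Ddit3 this difference was -1.67 ± 0.36 (adjusted p = 0.0429).

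At 8 h, the time of the Slc7a11 peak, 6 of 16 NRF2 and glutathione genes tested rose and 0 fell in the resistant lines, and 5 rose and 1 fell in the sensitive lines. Of all probes 3.1% passed at that time in the resistant lines and 4.13% in the sensitive lines. Gclm, a subunit of the enzyme that makes the glutathione precursor, rose by 1.56 ± 0.28 in the resistant lines (adjusted p = 0.00774) and by 1.49 ± 0.28 in the sensitive lines (adjusted p = 0.0081). For single lines its 8 h change was 1.23 (595sp VR) and 1.89 (638bm VR), where Slc7a11 stayed near background, against 2.15 in 595sp and 0.82 in 638bm. The gene of NRF2, Nfe2l2, changed by -0.12 ± 0.20 in the resistant lines (adjusted p = 0.813), and rose by 1.27 ± 0.20 in the sensitive lines (adjusted p = 0.00274), with 1.58 in 595sp and 0.95 in 638bm.

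Among 22 other amino acid transporters of the plasma membrane tested, 0 passed in the resistant lines at 24 h by limma. At an unadjusted p under 0.05 there was 1, beside 2736 of all 21543 probes. In the sensitive lines 4 passed, all lower. Of all probes 1.27% passed in the resistant lines and 20.3% in the sensitive lines, 9.77% lower, so the total of calls in the list lay near that over all probes. Slc38a10, of the Slc38a2 family, fell by 1.66 ± 0.25 (adjusted p = 0.000326), and Slc6a6, the taurine carrier, by 1.24 ± 0.21. Slc7a6, a light chain that pairs with Slc3a2, fell by 1.19 ± 0.24, and Slc43a1, a carrier of large neutral amino acids, by 0.89 ± 0.18. The list's median was -0.0037 in the sensitive lines, beside 0.06 for all genes, so most of it did not follow. Untreated, 3 of the 22 were called lower in resistant lines, beside 3.46% of all probes, Slc38a10 (-2.33 ± 0.38) and Slc6a6 (-1.73 ± 0.26) among them. Slc7a1, a carrier of cationic amino acids above background on 11 of 24 arrays, and Slc7a7, another partner of Slc3a2, passed in neither comparison. Slc7a8 was not tested.

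Of 13 lysosomal and mitochondrial carriers tested, the resistant lines had 1 higher and 0 lower at 24 h, and the sensitive lines 1 higher and 3 lower, beside 1.27% and 20.3% of all probes called in those arms. Slc25a38, the mitochondrial glycine carrier, rose by 0.82 ± 0.19 in the resistant lines (adjusted p = 0.0458) and by 1.32 ± 0.19 in the sensitive lines. Slc15a3, a lysosomal peptide and histidine carrier, fell by 1.76 ± 0.29 in the sensitive lines, Slc38a9, the lysosomal arginine sensor, by 1.02 ± 0.24, and Sfxn1, a mitochondrial serine carrier, by 0.86 ± 0.19. The Slc15a3 response was 1.80 ± 0.41 more positive in resistant lines (adjusted p = 0.0489).

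Enzymes of glutamine, glutamate and asparagine metabolism and genes of amino acid sensing by mTORC1 had 0 calls in the resistant lines at 24 h by limma. At an unadjusted p under 0.05 they had 1 and 2, beside 2736 of all 21543 probes. Of all probes 1.27% were called there. Of the enzymes, 1 of 14 was higher and 1 lower over the sensitive lines at that time, beside 10.6% of all probes called higher and 9.77% lower. Gmps, GMP synthetase, rose by 1.08 ± 0.21, and Cad, the enzyme that starts pyrimidine synthesis from glutamine, fell by 0.85 ± 0.18, while Pfas changed by -0.42 ± 0.16 without passing. In the 23 genes of amino acid sensing 1 rose and 4 fell, a share near the 20.3% of all probes called at that time, with Rragc, a Rag GTPase, at 0.62 ± 0.16, and Mtor at -1.08 ± 0.24 and Lamtor2 at -0.60 ± 0.16.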

How the data were processed

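Total RNA was amplified and labelled with biotin for 1-colour Illumina arrays, per the labels' protocols. The deposited table holds 1 average signal intensity per probe and array, not normalized, per the file headers. The authors' processed intensity table, with the same distribution on every array and its tool not given in the sources used here, was an alternative. The deposited table used has no detection p-values or control probes. Signals were corrected with normexp (limma 3.58.1, R 4.3.3, offset 16, which shrinks changes of dim probes), quantile normalized and put on the log2 scale.

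A probe was above background 2.326 SDs over the mode (mirrored below it, standing in for a detection p of 0.01), and probes so on at least 2 arrays were tested. Both 24 h arrays of a line were averaged, giving 20 values. The limma fit had cell line and arm by time (8 residual, 8.02 prior degrees of freedom). The untreated fit had origin and arm by time (9 and 3.14), and most of its degrees of freedom are owed to later times of those lines, so its errors are too small where pairs disagree. There a call needed both pairs to differ by 1 log2 unit or more the same way, or the 1 pair left where a line was left out. Elsewhere a call needed an adjusted p under 0.05, by Benjamini-Hochberg over all probes tested. The same line runs through all times, so the line pairs the samples.

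The brightest probe tested stood for a gene, giving 10969 genes. Of all probes 34885 had 1 gene symbol in the platform annotation, 18 several and 10378 none. Promoters and gene positions came from RefSeq (GRCm38.p6). The rule named all members with all probes, the 3 genes most like each, up to 4 genes per context list with the smallest p in the sensitive lines at 24 h, and Atf4, Ddit3, Asns, Nfe2l2, Gclm, Slc7a1, Slc7a6, Slc7a7 and Slc7a8. The members and lists were chosen with earlier results of these data known. Scripts were tested on simulated data. Alternatives were median scaling, no background correction, an offset of 50, the authors' table, no filter, 1 probe per gene, no cell line in the model, the characteristic's times, and each 24 h array set or line left out.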

Additional observations from a re-analysis of the deposited data

Results flagged for a closer look

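The change of Slc1a4 at 24 h was -1.84 on the log2 scale in 595sp, apart from the 0.38 to 0.43 of 638bm VR, 595sp VR and 638bm, a gap of 0.977 of the whole range and past Dixon's critical value for 4 values. Among 24 groups of 4 lines examined in this way 1 stood apart, and chance sets about 1 group in 20 apart. The response of Slc38a2 probe 2 at 24 h was 1.56 more positive in resistant than in sensitive lines by the test of the difference itself (limma, adjusted p = 0.0285), and probe 1 of the gene did not show it.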

How the results depend on the processing

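For the probes that passed, 163 of 215 alternative values kept their call, 52 kept their direction without passing, and 0 reversed, over 14 settings of which 6 left out arrays or lines. The 215 include Slc7a11 probes 2 and 5 at 8 h, bright enough to be tested only through 595sp. They also include untreated runs with 1 pair left, so the total does not measure how firm the calls are. At 8 h in the sensitive lines 0 genes were called without background correction, with an offset of 50, on the authors' table, and with no cell line block in the model. That last model paired no samples by line, and it gave 0 genes at 16 h, 1 at 24 h and 1 untreated. Median scaling gave 1 gene for the difference of responses at 24 h. Leaving out 1 line or 1 set of 24 h arrays gave 0 to 2 genes at 8 h in the sensitive lines, 0 to 2 at 16 h and 1 to 5 at 24 h. It gave 0 to 1 for the difference of responses at 8 h and at 16 h, 0 to 2 at 24 h, and 1 to 4 untreated. Where a line was left out its arm had 1 line, and the untreated rule then asked for 1 pair only. In each of those runs more of all probes were called untreated than as reported. For the difference at 24 h the calls over all probes moved both ways. The ranges above therefore do not describe the member genes alone, and the cause was not tested. Over all probes, the split of calls with median scaling was 185 up and 735 down for the sensitive lines at 8 h (as reported, 403 and 486), 359 up and 116 down for the resistant lines at 24 h (as reported, 130 and 144), and 374 up and 30 down for the difference at 24 h (as reported, 170 and 45). It moved the median of all probes to 0.12, 0.13 and 0.16 for the differences at 2, 8 and 16 h. Without the cell line 236 probes were called in place of 4383 for the sensitive lines at 24 h, and 0 in place of 274 for the resistant lines. With the characteristic's times for 638bm VR the last count was 0 as well. Untreated, 542 probes were called without background correction and 512 with an offset of 50, in place of 846.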
